A study of Mus musculus with 6 samples.

Results

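A set of 32 genes of red cell formation and heme synthesis was followed across 3 bone sites of the mouse. The set holds erythroid transcription factors, heme synthesis enzymes, iron importers, globins, membrane skeleton proteins, surface proteins and a few other red cell proteins. A member was read through array probe sets that the platform annotation ties to its symbol and to no other. Of the 32 genes, 29 had such a probe set, and these held 60 of the 45101 probe sets in the values table. Of the 29, 28 had a probe set that lay above the median of its array on at least 2 of the 6 arrays and entered the tests, with 50 probe sets between them. Hbb-b1, Ahsp and Epb41 had no probe set of 1 symbol, and the one of Hba-a1 lay below the array median on every array.

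The arrays were Affymetrix GeneChips covering the mouse genome, 2 for each of calvaria, mandible and ulna of untreated bone. The mice were male, skeletally mature Black CD57 animals of 24 to 26 g, 10 in 2 groups per the methods, and whether an array stands for 1 animal or for a pool is not given in the sources used here. Calvaria is the skull vault and was taken without its sutures, the mandible was taken with its teeth, and the ulna, a forelimb bone, without soft tissue and epiphyses. Bone was ground whole, and no step that removed marrow or blood is given in the sources used here. Tooth transcripts stood out in the mandible, where Dspp, a gene of dentin, read 8582 and 8383 against at most 2.85 on the other 4 arrays. Skeletal muscle transcripts were present in all 3 sites although soft tissue had been removed from the ulna, and Acta1 read 8259 and 8478 on the ulna arrays, 1290 and 1218 on the calvaria arrays and 8787 and 8735 on the mandible arrays.

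Red cells form in the marrow from progenitors that respond to erythropoietin. Gata1, Tal1 and Klf1 switch on the genes of the lineage, and the maturing erythroblast takes in iron, makes heme in steps shared between mitochondrion and cytosol, fills with globin and builds a membrane skeleton of spectrin anchored to band 3. Gata1, Tal1, Gfi1b and Nfe2 also act in megakaryocytes, and all cells make some heme through Alas1, while Alas2 is the erythroid form.

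The promoters of 24 of the 32 members were found in RefSeq for GRCm38.p6, as 250 bases before to 50 after each start. They were searched on both strands for the 6 letters AGATAA and TGATAA, the core that GATA factors such as Gata1 recognise. One or the other was found in 14 of the 24 member genes (58.3%), against 21.0% of all 27025 genes with a promoter in the same table. CCNCNCCC, the kind of site that Klf1 and related factors recognise, was found in 18 of the 24, against 51.9% of all genes. AGATAA and TGATAA share the letters GATAA and cannot overlap at the same place on a strand. Such a match is a description of these letters, not a site of binding. Of the promoters below, Alas2, Klf1, Ermap and Hemgn are shown because they hold the core, which is in capitals on whichever strand it lay (TTATCT and TTATCA are its reverse complements), and because their genes stand for enzymes, factors, surface proteins and nuclear proteins of the lineage. Bpgm is shown as the member with the smallest difference of either skull bone from ulna, and it holds no match. Each runs 5′ to 3′ on the strand of its gene.
Alas2, chrX:150547167-150547466, plus strand: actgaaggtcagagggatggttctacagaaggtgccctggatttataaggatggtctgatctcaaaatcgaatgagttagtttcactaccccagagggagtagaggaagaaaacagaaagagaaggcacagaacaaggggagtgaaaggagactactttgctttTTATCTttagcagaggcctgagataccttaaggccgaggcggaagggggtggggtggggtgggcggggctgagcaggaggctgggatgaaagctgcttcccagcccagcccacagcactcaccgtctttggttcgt
Klf1, chr8:84901732-84902031, plus strand: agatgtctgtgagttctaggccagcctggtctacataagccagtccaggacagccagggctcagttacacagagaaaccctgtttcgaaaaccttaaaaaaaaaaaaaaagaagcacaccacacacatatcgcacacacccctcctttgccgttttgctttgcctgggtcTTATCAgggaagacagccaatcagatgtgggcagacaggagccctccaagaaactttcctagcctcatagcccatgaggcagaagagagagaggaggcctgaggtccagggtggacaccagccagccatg
Ermap, chr4:119189946-119190245, minus strand: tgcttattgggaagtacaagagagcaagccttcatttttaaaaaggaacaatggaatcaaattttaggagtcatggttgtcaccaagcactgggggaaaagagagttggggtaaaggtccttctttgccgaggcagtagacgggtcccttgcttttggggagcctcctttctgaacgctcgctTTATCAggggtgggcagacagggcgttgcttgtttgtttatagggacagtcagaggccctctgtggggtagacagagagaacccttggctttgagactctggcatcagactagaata
Hemgn, chr4:46404134-46404433, minus strand: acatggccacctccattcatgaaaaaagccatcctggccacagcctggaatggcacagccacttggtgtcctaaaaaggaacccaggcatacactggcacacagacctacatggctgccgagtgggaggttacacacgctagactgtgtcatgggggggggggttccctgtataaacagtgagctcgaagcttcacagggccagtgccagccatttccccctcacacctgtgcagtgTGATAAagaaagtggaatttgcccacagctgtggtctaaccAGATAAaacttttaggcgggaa
Bpgm, chr6:34476106-34476405, plus strand: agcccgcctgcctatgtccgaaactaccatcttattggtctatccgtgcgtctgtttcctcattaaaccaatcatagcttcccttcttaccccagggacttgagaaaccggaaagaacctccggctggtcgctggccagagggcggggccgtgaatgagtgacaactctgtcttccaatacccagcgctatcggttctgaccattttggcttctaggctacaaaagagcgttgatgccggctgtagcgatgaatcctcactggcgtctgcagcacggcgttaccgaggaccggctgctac

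Most of the erythroid and heme synthesis genes were highest in ulna, lower in calvaria and lowest in mandible. On the read probe set of each gene, the one with the highest mean, both ulna arrays lay above both calvaria arrays and these above both mandible arrays in 25 of 28 members. Among all 12326 genes tested, 17.1% showed this order. Tfrc, Add2 and Bpgm did not. As a percentage of the ulna mean, the members' median was 56.3 and 59.4 on the calvaria arrays and 35.8 and 36.2 on the mandible arrays. Here a signal is the linear MAS5 intensity as deposited, and a log2 difference, given ± its standard error, is taken after each array was divided by its median. In these bulk samples, fewer cells of a type and less RNA per cell cannot be told apart.

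**Figure D1:**
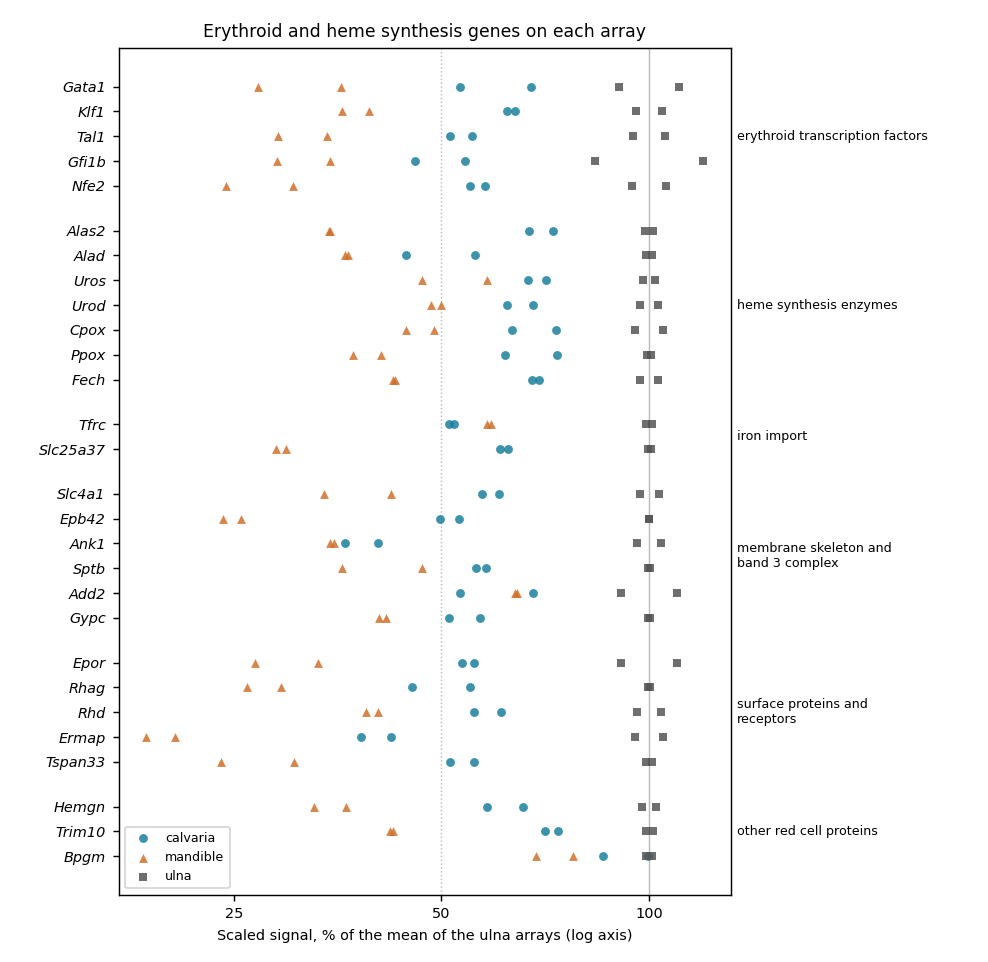
Each point is 1 array. The horizontal axis, on a log scale, is the scaled signal of the gene's read probe set as a percentage of the geometric mean of both ulna arrays, and the rows are the 28 tested members by role. In 25 of 28 rows the mandible points lie left of the calvaria points and these left of the ulna points, and the exceptions are Tfrc, Add2 and Bpgm.

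Calvaria against ulna asks how a skull bone of membranous origin differs from a limb bone. Of the 28 members, 27 were lower in calvaria at an adjusted p under 0.05 (background, 18.4% of all genes tested). None was higher, in limma with or without moderation, and none was higher at an unadjusted p under 0.05. The median log2 difference was -0.77, a calvaria level of 58.6% of ulna, where the median over all genes was -0.05. At least 2-fold lower as well were 5 of 28 (background 4.54%), namely Gfi1b, Alad, Ank1, Rhag and Ermap. Gfi1b, Alad and Rhag lay just past 2-fold and were under 2-fold with the values as deposited, after quantile normalization, with division by the 75th percentile and with an offset, which left 2 of the 5. Without ulna array 2 there were 3, since Gfi1b and Alad fell short.

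Mandible against ulna gave the widest gap. All 28 members tested were lower in mandible at an adjusted p under 0.05 (background 28.1%), and 24 were also at least 2-fold lower (background 10.9%). The remaining members, Uros, Tfrc, Add2 and Bpgm, were lower by less than 2-fold. The median log2 difference was -1.44, which is 37.0% of the ulna level, against -0.08 over all genes. None was higher, in limma with or without moderation, and none was higher at an unadjusted p under 0.05.

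Mandible against calvaria compares both skull bones. Here 24 of 28 members were lower in mandible at an adjusted p under 0.05 (background 16.2%), with a median log2 difference of -0.71 against -0.09 over all genes. Nfe2, Alas2, Slc25a37, Epb42 and Ermap were at least 2-fold lower, 5 of 28 (background 4.01%). They lay between -1.07 and -1.02, and 3, 3 and 2 of the 28 passed with the values as deposited, after quantile normalization and with division by the 75th percentile. Without calvaria array 2, 3 passed, since Alas2 and Ermap fell short. Tfrc, Ank1, Sptb and Add2 did not pass the adjusted p. No member was higher at that threshold and 1, Tfrc, was at an unadjusted p under 0.05. With ordinary linear models in place of moderated variances, 16 of 28 were lower in calvaria than in ulna and 7 of 28 lower in mandible than in calvaria, with 1 higher, while 26 were lower in mandible than in ulna. The share of all genes tested was not taken for these models, so these counts have no background beside them.

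The 3 comparisons share arrays, so that each is not independent of the others. Scaling by the array median set the median of all genes in mandible against ulna at -0.08, and with the values as deposited it was 0.03, so that every difference of that comparison shifts by the same amount with the choice. P-values rest on the spread between the 2 arrays within a site, pooled over the 3 sites and moved toward the trend over all tested probe sets. That spread may be technical.

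**Figure D2:**
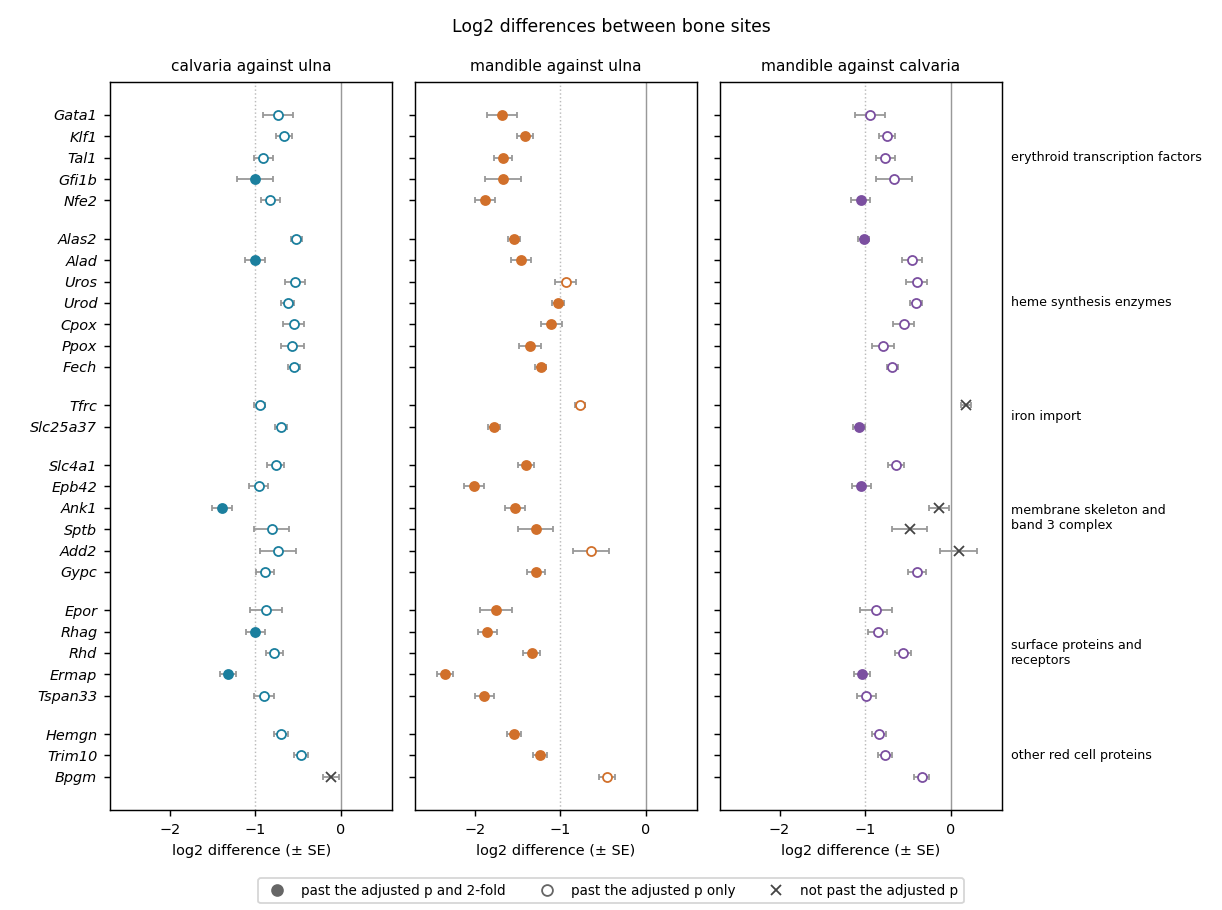
Log2 difference with its standard error for each of 28 members in the 3 comparisons, with the comparison named above each panel. Filled circles passed the adjusted p and 2-fold (5, 24 and 5 members), open circles passed the adjusted p only, and crosses did not pass it. Dotted lines mark a 2-fold lower level.

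The erythroid transcription factors were lower in calvaria than in ulna, and lower still in mandible, in 5 of 5. Gata1, the factor that defines the lineage, read 295 and 356 on the ulna arrays, 182 and 231 on the calvaria arrays and 126 and 94.8 on the mandible arrays. The sites did not overlap, and both mandible arrays lay below both calvaria arrays, with a log2 difference from ulna of -1.68 ± 0.18 (adjusted p = 2.35e-05). Klf1, which drives the adult beta-globin gene, read 729 and 784 on the ulna arrays, 496 and 508 on the calvaria arrays and 296 and 320.1 on the mandible arrays. Its arrays within a site lay close together, and the differences from ulna were -0.67 ± 0.09 for calvaria and -1.41 ± 0.09 for mandible. Nfe2, a subunit of a factor that acts on globin control regions, read 1001 and 1106 on the ulna arrays, 611 and 642 on the calvaria arrays and 349 and 276 on the mandible arrays. It had the largest mandible difference of this group, -1.88 ± 0.11 (adjusted p = 3.91e-07), and mandible also lay below calvaria by more than 2-fold. Tal1, a partner of Gata1, differed from ulna by -0.91 ± 0.11 in calvaria and -1.67 ± 0.11 in mandible. Gfi1b, a repressor needed for red cell maturation, had a wider spread, with 166 and 236 in ulna and 95.6 and 113 in calvaria, and the log2 difference between them was -1.01 ± 0.21 (adjusted p = 0.00424). The median log2 differences of the 5 were -0.82 for calvaria and -1.67 for mandible against ulna, and -0.76 for mandible against calvaria.

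The heme synthesis enzymes were lower in both skull bones than in ulna in 7 of 7, and lower in mandible than in calvaria in 7 of 7. In pathway order they begin with Alas2, the erythroid form of the enzyme that joins glycine to succinyl-CoA, whose signal was 2831 and 2724 on the ulna arrays, 1961 and 2125 on the calvaria arrays and 1041 and 1033 on the mandible arrays. Both mandible arrays were about the same and lay at about 34.4% of ulna, with a log2 difference of -1.54 ± 0.07 (adjusted p = 4.39e-08), while the calvaria difference was -0.52 ± 0.07 (adjusted p = 0.000193). Alad, which makes porphobilinogen, read 664 and 668 on the ulna arrays, 393 and 311 on the calvaria arrays and 266 and 259.7 on the mandible arrays. Calvaria differed from ulna by -1.01 ± 0.12 on this probe set, while the difference of mandible from calvaria was -0.45 ± 0.12. Uros, which closes the ring of the porphyrin precursor, differed by -0.54 ± 0.12 and -0.94 ± 0.12 from ulna. Urod, which follows it, differed by -0.62 ± 0.07 and -1.03 ± 0.07. Cpox, the first of the oxidation steps, read 390.2 and 352 on the ulna arrays, 286 and 247 on the calvaria arrays and 179.6 and 195 on the mandible arrays, with differences of -0.55 ± 0.12 and -1.10 ± 0.12. Ppox, the last step before iron, differed by -0.57 ± 0.13 and -1.36 ± 0.13. Fech, which puts iron into the ring, read 2071 and 2173 on the ulna arrays, 1548 and 1514 on the calvaria arrays and 984 and 978 on the mandible arrays. Its sites did not overlap, and the differences from ulna were -0.55 ± 0.07 and -1.23 ± 0.07. The group's medians were -0.55, -1.23 and -0.55 in calvaria against ulna, mandible against ulna and mandible against calvaria.

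Iron import was read through Slc25a37 and Tfrc, and both were lower in each skull bone than in ulna. Slc25a37, mitoferrin of the inner mitochondrial membrane, read 2345 and 2339 on the ulna arrays, 1541 and 1501 on the calvaria arrays and 761 and 725 on the mandible arrays. Mandible lay lowest without overlap, at -1.77 ± 0.07 (adjusted p = 1.43e-08) from ulna and -1.07 ± 0.07 (adjusted p = 1.48e-06) from calvaria. Tfrc, the transferrin receptor that takes iron into the cell and is also carried by other dividing cells, read 2641 and 2655 on the ulna arrays, 1459 and 1431 on the calvaria arrays and 1683 and 1682 on the mandible arrays. Here calvaria lay lowest and mandible between the others, without overlap. The log2 difference of mandible from calvaria was 0.18 ± 0.06 (adjusted p = 0.0645), and it passed the threshold on the values as deposited, with division by the 75th percentile, with the stricter filter and without moderation. A second Tfrc probe set with a lower signal differed by -0.13 ± 0.17 (adjusted p = 0.637) between mandible and calvaria, and the dimmest by 0.37 ± 0.44 (adjusted p = 0.6). On a control probe set at the 3′ end of Tfrc, left out of the tests, mandible lay lowest. It read 106 and 114 on the ulna arrays, 76.0 and 76.1 on the calvaria arrays and 62.7 and 43.1 on the mandible arrays. The difference between Tfrc and Slc25a37 was not itself tested.

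The membrane skeleton and band 3 complex had 6 tested members, and all 6 were lower in both skull bones than in ulna. Slc4a1, band 3 itself, the anion exchanger, read 4146 and 3841 on the ulna arrays, 2410 and 2547 on the calvaria arrays and 1472 and 1819 on the mandible arrays. No arrays of different sites overlapped, and the differences from ulna were -0.76 ± 0.10 and -1.40 ± 0.10. Epb42, which binds band 3, read 487 and 482 on the ulna arrays, 271 and 254 on the calvaria arrays and 135 and 126 on the mandible arrays. Its mandible level was 24.8% of ulna, a log2 difference of -2.01 ± 0.11 (adjusted p = 2.11e-07). Ank1, the ankyrin that ties spectrin to band 3, read 502 and 457 on the ulna arrays, 183 and 204 on the calvaria arrays and 179.8 and 181 on the mandible arrays. Calvaria and mandible were both far below ulna, at -1.39 ± 0.12 (adjusted p = 7.06e-06) and -1.53 ± 0.12 (adjusted p = 2.07e-06), and their arrays lay side by side. The log2 difference between the skull bones was -0.14 ± 0.12 (adjusted p = 0.438) on this probe set and 0.86 ± 0.25 (adjusted p = 0.0299) on a second, dimmer one, where mandible read 72.7 and 124 and calvaria 51.2 and 50.7. Sptb, beta spectrin, differed by -0.81 ± 0.21 and -1.29 ± 0.21 from ulna and by -0.48 ± 0.21 (adjusted p = 0.127) between mandible and calvaria. Add2, an adducin that caps actin filaments, read 98.7 and 118 on the ulna arrays, 60.5 and 77.1 on the calvaria arrays and 75.6 and 74.1 on the mandible arrays. Its calvaria and mandible arrays overlapped, with a log2 difference of 0.09 ± 0.21 (adjusted p = 0.806), whose sign turned without calvaria array 1. Gypc, a glycophorin that holds the skeleton to the membrane, differed by -0.89 ± 0.11 and -1.28 ± 0.11 from ulna. In mandible against calvaria, 3 of the 6 were lower at the adjusted p, namely Slc4a1, Epb42 and Gypc, and 3 did not pass it.

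Surface proteins and receptors had the widest differences by their medians, -0.90, -1.86 and -0.88 in the 3 comparisons, and 5 of 5 were lower in each. Ermap, an erythroid membrane protein of the immunoglobulin family, read 1698 and 1527 on the ulna arrays, 649 and 716 on the calvaria arrays and 328 and 357 on the mandible arrays. Each site stood apart, and mandible lay at 19.6% of ulna, the lowest share among the 28 members. Its log2 differences were -1.32 ± 0.09 (adjusted p = 1.63e-06), -2.35 ± 0.09 (adjusted p = 1.98e-08) and -1.04 ± 0.09 (adjusted p = 2.11e-05) in the order of the 3 comparisons. Rhag, a channel of the Rh complex, read 995 and 973 on the ulna arrays, 471 and 571 on the calvaria arrays and 280.2 and 311 on the mandible arrays. The Rh protein Rhd of the same complex read 686 and 733 on the ulna arrays, 417 and 456 on the calvaria arrays and 301 and 309 on the mandible arrays. Rhag was just past 2-fold lower in calvaria (adjusted p = 5.28e-05) and differed by -1.86 ± 0.11 in mandible, and Rhd by -0.78 ± 0.10 and -1.33 ± 0.10. Tspan33, a tetraspanin of erythroid progenitors, differed by -0.90 ± 0.11 and -1.89 ± 0.11. Epor, the erythropoietin receptor that keeps progenitors alive, read 166 and 198 on the ulna arrays, 107 and 102 on the calvaria arrays and 65.4 and 52.4 on the mandible arrays. Both mandible arrays were the lowest, at -1.75 ± 0.19 (adjusted p = 2.66e-05) from ulna and -0.88 ± 0.19 (adjusted p = 0.00674) from calvaria.

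The other red cell proteins were Hemgn, Trim10 and Bpgm. Hemgn, a nuclear protein of blood progenitors, read 2689 and 2530 on the ulna arrays, 1804 and 1599 on the calvaria arrays and 930.0 and 1021 on the mandible arrays. The sites were apart, with -0.70 ± 0.08 and -1.54 ± 0.08 from ulna. Trim10, needed late in erythroid maturation, differed by -0.47 ± 0.08 and -1.24 ± 0.08. Bpgm, the enzyme that makes the bisphosphoglycerate by which hemoglobin releases oxygen, read 1396 and 1407 on the ulna arrays, 1268 and 1470 on the calvaria arrays and 1049 and 1172 on the mandible arrays. Calvaria overlapped ulna, with a log2 difference of -0.11 ± 0.09 (adjusted p = 0.381), and the difference of mandible from ulna was -0.45 ± 0.09 (adjusted p = 0.00198). Its other probe sets put calvaria above ulna by 0.21 ± 0.08 and 0.23 ± 0.09 (adjusted p = 0.0781 and 0.0737), and after quantile normalization the difference of the read one turned to 0.034.

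Globin itself could not be read through the member rule. The Hba-a1 probe set of 1 symbol read 3.04 and 4.71 in ulna, 26.9 and 14.0 in calvaria and 7.57 and 11.5 in mandible, all below the array median, and no fold was taken. The annotation ties 4 further probe sets to several adult alpha- or beta-globin genes at once. These are near-identical copies that such probes cannot separate. Their signals lay between 6776 and 12928 on all 6 arrays, above 99.7% of the probe sets of an array, where the highest signal of an array was 17235 to 19117. Calvaria differed from ulna by -0.27 to 0.10 on the log2 scale over the 4 (smallest adjusted p = 0.0168), mandible from ulna by -0.18 to -0.13 (0.0390) and mandible from calvaria by -0.28 to 0.14 (0.00836). No such probe set differed by 2-fold. Whether signal is still proportional to transcript at this height was not tested. A probe set that the annotation ties to Hbb-b2 alone, looked at after its values were seen, read 575 and 624 on the ulna arrays, 618 and 564 on the calvaria arrays and 343 and 254 on the mandible arrays. On it, mandible differed from ulna by -1.14 ± 0.13 (adjusted p = 4.68e-05) and calvaria by -0.10 ± 0.13 (adjusted p = 0.625). Whether it also reads other globin transcripts was not tested. The other single-symbol probe set of Hbb-b2 read between 23.6 and 59.4 and passed no threshold.

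**Figure D3:**
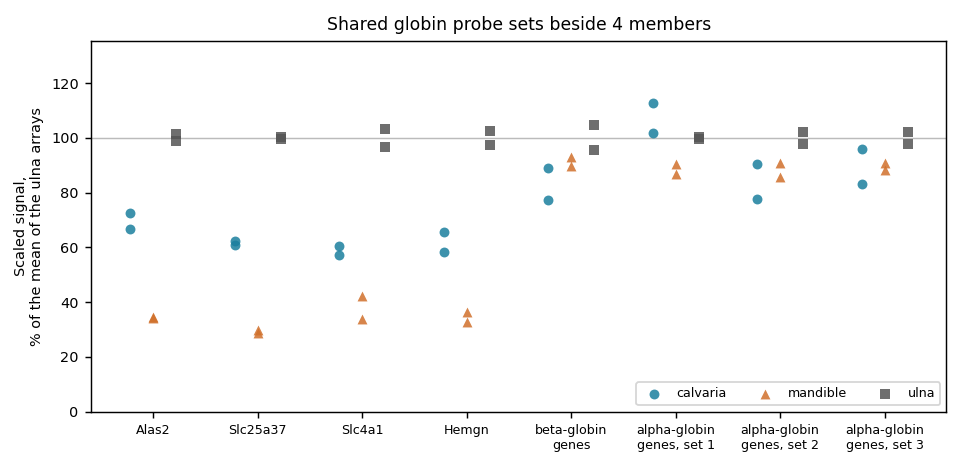
Scaled signal of 4 members and of the 4 globin probe sets that the annotation ties to several genes, as a percentage of the mean of both ulna arrays, with 1 point per array. Mandible points of the members lie far below 100, while those of the globin probe sets differ from ulna by -0.18 to -0.13 on the log2 scale.

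Several probe sets of a gene were tested for 14 of the 28 members. Over all 50 tested probe sets, 37 were lower in calvaria than in ulna at the adjusted p (16.6% of all 25233 tested probe sets), 43 lower in mandible than in ulna (26.6%) and 30 lower in mandible than in calvaria (13.5%). None of the 50 was higher at the adjusted p in either comparison with ulna, though the other Bpgm probe sets had positive differences in calvaria against ulna. At the adjusted p, 1 was higher in mandible than in calvaria (8.38%), the dimmer Ank1 probe set above. In the order of the 3 sites without overlap were 33 of the 50, against 16.0% of all tested probe sets. The sign differed between probe sets of a gene for Bpgm in calvaria against ulna, for no gene in mandible against ulna, and for Add2, Ank1, Sptb, Tfrc and Uros in mandible against calvaria. Where they had 1 sign they still differed in size. A second Cpox probe set read 409 and 347 on the ulna arrays, 209 and 127 on the calvaria arrays and 87.5 and 87.7 on the mandible arrays, and its differences from ulna were -1.28 ± 0.21 and -2.22 ± 0.21, larger than those of the read one. A second one of Slc4a1 differed by -1.07 ± 0.07 and -1.81 ± 0.07. Others had smaller differences than the read one. A second Urod probe set differed from ulna by -0.49 ± 0.11 and -0.63 ± 0.11. Its mandible and calvaria arrays overlapped, with -0.14 ± 0.11 (adjusted p = 0.387). A dimmer Tspan33 probe set differed from ulna by -0.82 ± 0.14 and -0.95 ± 0.14. Its skull bones also overlapped, with -0.13 ± 0.14 (adjusted p = 0.565).

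**Figure D4:**
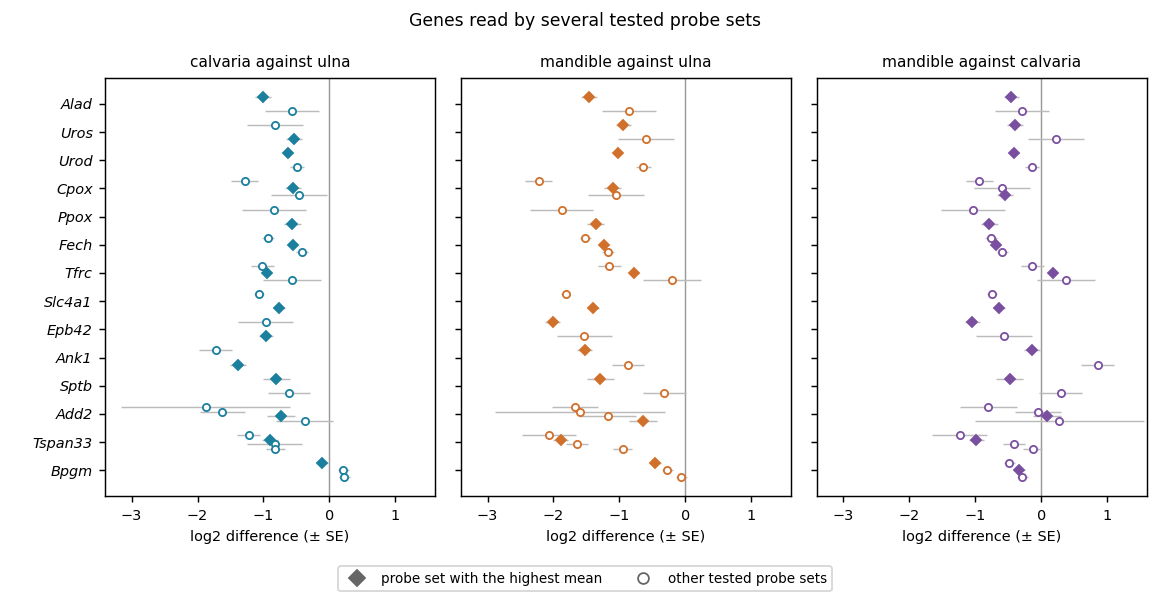
Log2 difference with its standard error for every tested probe set of the 14 members that had several. Diamonds are the probe set with the highest mean, by which the gene is read, and circles the others. In mandible against ulna, the middle panel, all lie below 0, and in mandible against calvaria Add2, Ank1, Sptb, Tfrc and Uros lie on both sides.

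The rest of the pathway was followed through 69 further genes, of which 62 had a probe set of 1 symbol and 59 were tested. In calvaria against ulna 38 were lower at the adjusted p (background 18.4%), 0 higher and 21 did not pass. At an unadjusted p under 0.05, 1 was higher. In mandible against ulna 45 were lower (background 28.1%), 0 higher and 14 did not pass, and none was higher at an unadjusted p under 0.05. In mandible against calvaria 27 were lower (background 16.2%), 3 higher (background 10.5%) and 29 did not pass. The medians were -0.53, -0.86 and -0.39 on the log2 scale, where those of the members were -0.77, -1.44 and -0.71. Among the 15 other heme and iron genes, Abcb10, a mitochondrial transporter of erythroid cells, read 589 and 582 on the ulna arrays, 296 and 301 on the calvaria arrays and 201 and 211 on the mandible arrays, without overlap, and mandible differed from ulna by -1.62 ± 0.10 (adjusted p = 4.46e-07). Alas1, the form of the first enzyme found in all cells, differed from ulna by -0.76 ± 0.09 and -1.14 ± 0.09. Among 25 other red cell genes, Car1, a carbonic anhydrase, read 1620 and 1725 on the ulna arrays, 786 and 741 on the calvaria arrays and 358 and 405 on the mandible arrays, with -2.25 ± 0.09 (adjusted p = 2.44e-08) in mandible against ulna. Kel, a blood group protein, differed by -1.19 ± 0.11 and -1.97 ± 0.11 from ulna. Of the 19 other erythroid regulators, E2f2, which acts in the divisions of erythroblasts, differed by -1.24 ± 0.17 and -2.03 ± 0.17. Myb, a factor of early progenitors, read 1463 and 1292 on the ulna arrays, 1053 and 1210 on the calvaria arrays and 374 and 426 on the mandible arrays. Its calvaria difference from ulna was -0.36 ± 0.10 (adjusted p = 0.0219) and its mandible difference -1.90 ± 0.10 (adjusted p = 1.70e-07). Mllt3, known from stem cells and the erythroid and megakaryocyte branches, was higher in mandible than in calvaria by 0.91 ± 0.16 (adjusted p = 0.00237). From ulna it differed by -1.21 ± 0.16 (adjusted p = 0.000254) in calvaria and by -0.30 ± 0.16 (adjusted p = 0.162) in mandible.

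The members' differences were also set beside the GATA core of their promoters. For 13 tested members with AGATAA or TGATAA and 9 without, the median log2 differences were -0.78 and -0.74 in calvaria against ulna, -1.54 and -1.29 in mandible against ulna and -0.77 and -0.45 in mandible against calvaria. The ranges overlapped in each, and no test was made. The promoters of Alas2, Klf1, Ermap and Hemgn were shown because they hold the core, so that they add nothing to this comparison.

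Markers of other cells also differed between the sites. Their summed level is the sum over a list's tested genes of signal divided by the array median. For 9 genes of proliferating cells it was 417 and 418 on the ulna arrays, 244 and 247 on the calvaria arrays and 125 and 135 on the mandible arrays. Of these 9, 8 were lower in calvaria than in ulna (background 18.4%). In mandible, 9 were lower than in ulna (background 28.1%) and 9 lower than in calvaria (background 16.2%). The medians were -0.64, -1.46 and -0.89. Mki67, a marker of cycling cells, differed from ulna by -1.10 ± 0.07 and -2.07 ± 0.07. For 8 megakaryocyte genes the sum was 528 and 539 on the ulna arrays, 271 and 274 on the calvaria arrays and 214 and 219 on the mandible arrays. Of these, 7 were lower in each skull bone than in ulna (background 18.4% for calvaria and 28.1% for mandible), with medians of -1.21 and -1.59. In mandible against calvaria 5 were lower (background 16.2%), with -0.44. Pf4, a platelet chemokine, read 5250 and 5273 on the ulna arrays, 3031 and 3011 on the calvaria arrays and 2172 and 2174 on the mandible arrays.

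Neutrophil, B cell and macrophage genes had medians closer to 0 than the members in calvaria against ulna, while those of neutrophils and B cells lay further from 0 than the members' in mandible against calvaria. For 10 neutrophil genes the summed level was 2690 and 2759 on the ulna arrays, 2149 and 2306 on the calvaria arrays and 1711 and 1724 on the mandible arrays. Of the 10, 8 were lower in calvaria than in ulna (background 18.4%), with a median of -0.26. All 10 were lower in mandible than in ulna (background 28.1%), with -1.04. Against calvaria, 8 of the 10 were lower in mandible (background 16.2%), with a median of -0.82. Of 11 B cell genes, 2 were lower (background 18.4%) and 2 higher (background 15.9%) in calvaria than in ulna. These counts were near the background, and the median was -0.02. In mandible against ulna 9 were lower (background 28.1%), with a median of -0.85. In mandible against calvaria 9 of the 11 were lower (background 16.2%), and the median was 2-fold lower. Their summed level was 109 and 103 on the ulna arrays, 107 and 115 on the calvaria arrays and 60.4 and 61.5 on the mandible arrays. The calvaria and ulna arrays overlapped in it. For 9 genes of the macrophages that nurse erythroblasts, 2 were lower (background 18.4%) and 2 higher (background 15.9%) in calvaria than in ulna. These counts were near the background too. In mandible, 6 were lower (background 28.1%) and 1 higher (background 19.9%) than in ulna. The summed levels were 153 and 158 on the ulna arrays, 129.7 and 133 on the calvaria arrays and 117 and 122 on the mandible arrays. Set against calvaria, 5 of the 9 were lower (background 16.2%) and 1 higher (background 10.5%) in mandible, with a median of -0.42. Of 5 mast cell genes, 3 were lower in calvaria (background 18.4%) and 2 in mandible (background 28.1%) than in ulna. In mandible against calvaria 3 were lower (background 16.2%) and 1 higher (background 10.5%). The mast cell medians were -0.74, -0.29 and -1.12 in the 3 comparisons. The summed level of these genes was 22.3 and 21.8 on the ulna arrays, 16.5 and 16.4 on the calvaria arrays and 10.7 and 12.7 on the mandible arrays. In such sums the brightest genes weigh most. The order of the erythroid members, ulna highest and mandible lowest without overlap, was found in the sums of proliferating cells, megakaryocytes, neutrophils, macrophages and mast cells. It was not found in that of B cells. Genes of the macrophage and mast cell lists were divided in calvaria against ulna. Of the macrophage genes 4 were negative and 5 positive, with a median of 0.03, and of the mast cell genes 3 negative and 2 positive. Siglec1 of the macrophage list and Mcpt4 and Tpsb2 of the mast cell list did not pass the filter on low signal.

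Bone and muscle genes did not follow the erythroid order. For 8 osteoblast genes the summed level was 266 and 280.2 on the ulna arrays, 1021 and 1119 on the calvaria arrays and 1061 and 1046 on the mandible arrays. All 8 were higher in each skull bone than in ulna (background 15.9% for calvaria and 19.9% for mandible), with medians of 1.69 and 2.02. Col1a1, the collagen of bone, read 1494 and 1420 on the ulna arrays, 11842 and 13503 on the calvaria arrays and 12080 and 11704 on the mandible arrays. For 10 skeletal muscle genes the summed level was 1769 and 1809 on the ulna arrays, 214 and 210.0 on the calvaria arrays and 1549 and 1533 on the mandible arrays. All 10 were lower in calvaria than in ulna (background 18.4%), with a median of -3.02. In mandible against ulna 4 of them were lower (background 28.1%) and 1 higher (background 19.9%), with a median of -0.16. In mandible against calvaria all 10 were higher (background 10.5%), with a median of 2.92. Of the 8 osteoblast genes 2 were lower (background 16.2%) and 3 higher (background 10.5%) there, with 0.12. The part that these other tissues and cells had in the erythroid differences was not tested.

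**Figure D5:**
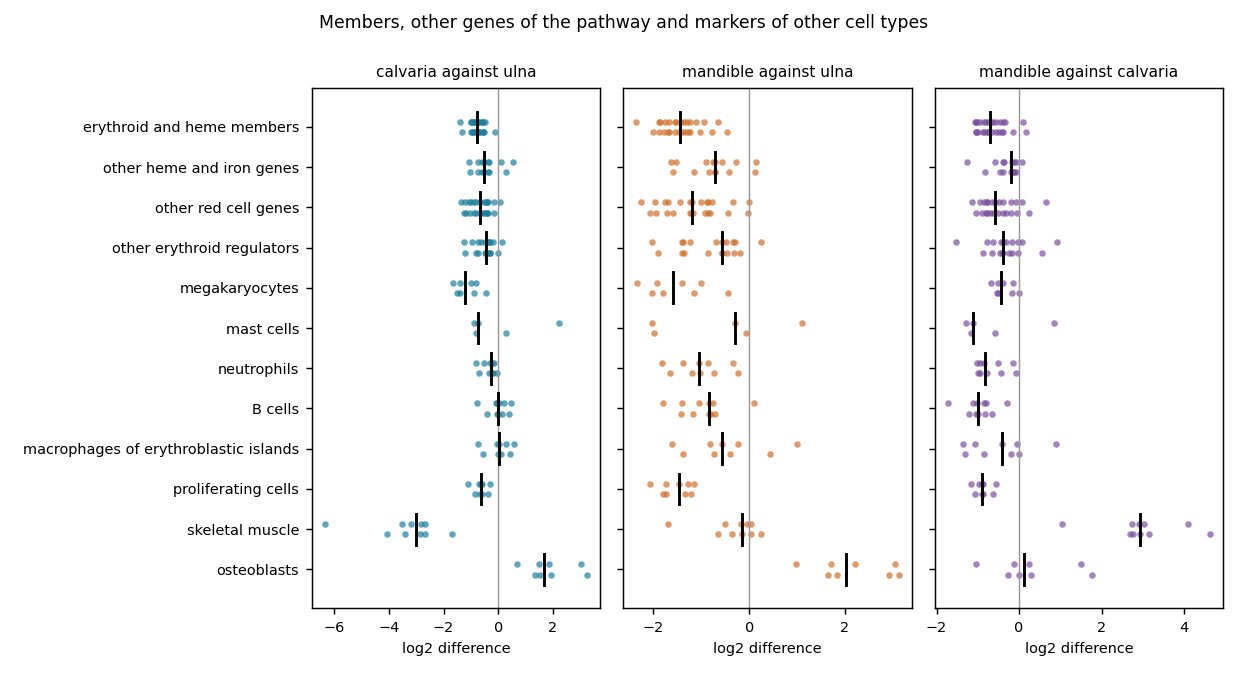
Log2 difference of every tested gene (points) and the median (black bar) for the erythroid and heme members, for the other genes of the pathway and for the marker lists, in the 3 comparisons; the horizontal axes differ between panels. The members' medians are -0.77, -1.44 and -0.71, those of proliferating cells -0.64, -1.46 and -0.89, and those of neutrophils -0.26, -1.04 and -0.82. The B cell median is -0.02 and -0.85 in the comparisons with ulna and 2-fold lower in mandible against calvaria.

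RNA quality could be read from control probe sets at the 3′ and 5′ ends of a transcript. The 3′ to 5′ ratio of Gapdh was 0.933 and 0.920 on the ulna arrays, 0.807 and 0.836 on the calvaria arrays and 0.835 and 0.791 on the mandible arrays. That of Actb was between 1.39 and 1.67, also highest on the ulna arrays. The ratio of Tfrc was 5.07 and 6.64 on the ulna arrays, 7.12 and 6.51 on the calvaria arrays and 3.21 and 1.66 on the mandible arrays. Its 5′ signals were dim, from 10.7 to 25.9. The part of RNA quality in the results was not tested.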

How the data were processed

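Gene expression in calvaria, mandible and ulna was read from 6 arrays, 2 per site, grouped by the labels. The authors computed the deposited intensities with MAS5 from 1-cycle labelled RNA and scaled each array to a 2% trimmed mean of 100. The build is not given in the sources used here. A fit of the mean per site was made with limma 3.58.1 in R 4.3.3 on log2 of each intensity over its array median, using empirical Bayes variances that follow a signal trend (3 residual and 7.67 prior degrees of freedom). Array number limits the precision. P-values were adjusted by Benjamini-Hochberg over the 25233 probe sets whose signal exceeded the median of its array on 2 or more of the 6, and 64 control probe sets were left out. Symbols came from the platform annotation, 34958 probe sets having 1. A gene was read by whichever of its tested probe sets had the highest mean, and a log2 difference of at least 1 counted as 2-fold. Members, lists and alternatives were chosen with earlier results of these data known. All members could be named, of each pathway group up to 4 genes per comparison with the largest change past the adjusted p, and of each marker list the 2 with the highest mean signal. Promoters came from RefSeq, GRCm38.p6. The fit was tested on simulated data. Deviations of same-numbered arrays were not correlated between sites (-0.00481, 0.00585 and -0.0123). This cannot show whether such arrays came from the same animals, which the labels do not give. Alternatives covered scaling, filter, offset, variance, arrays, a replicate block and probe sets. The rat arrays were not analysed here.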

Additional observations from a re-analysis of the deposited data

How the results depend on the processing

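In 18 alternatives, no member with a called difference changed its direction, and every difference that reversed belonged to Bpgm, Ank1 or Add2 in a comparison it had not passed. At the adjusted p and 2-fold, 5 members were lower in calvaria than in ulna, and there were 2 with the values as deposited, after quantile normalization, with division by the 75th percentile and with an offset, and 9 with the probe set of the largest change. Leaving out each array in turn gave 3 to 5, with 3 without ulna array 2. In mandible against calvaria the 5 became 3 as deposited, 3 after quantile normalization and 2 with the 75th percentile, and 3 to 7 on leaving out arrays, with 3 without calvaria array 2. Shares of all genes tested were taken only for the fit described above, not for the alternatives. The members lower at the adjusted p alone were 16 in place of 27 for calvaria against ulna without moderation, and 14 without the trend and 7 without moderation in place of 24 for mandible against calvaria. In the latter, 1 member, where none had been, was higher, Tfrc as deposited, with the 75th percentile, with the stricter filter and without moderation, and Ank1 with the probe set of the largest change. The median log2 difference of -0.77 in calvaria against ulna was -0.69 as deposited, -0.69 after quantile normalization, -0.71 with the 75th percentile, -0.88 with the largest change and -0.83 to -0.73 on leaving out arrays. That of -1.44 in mandible against ulna was -1.32, -1.31 and -1.33 under these scalings, -1.50 with the mean of a gene's probe sets and -1.60 with the largest change. Bpgm in calvaria against ulna turned to 0.034 after quantile normalization, 0.11 with the mean of its probe sets and 0.23 with the largest change. Ank1 in mandible against calvaria turned to 0.36 and 0.86 with the mean and the largest change, and Add2 to -0.12 and -0.80, with -0.084 to 0.27 on leaving out arrays. In full order of sites were 25 of 28 members as deposited and 24 after quantile normalization. The cause of these shifts was not tested beyond the alternatives' own construction.

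With the replicate block, the counts at the adjusted p were 27, 28 and 24. The 84 log2 differences kept their size, which a block balanced over the sites cannot change. Limits: 2 arrays a site leave 3 residual degrees of freedom, and on leaving out an array the lone one of its site is assumed to vary like the others. Signals of dim probe sets such as those of Add2 and Sptb are the least certain, and the globin copies are read together near the top of the range.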
